A study of Mus musculus with 4 samples.

Results

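The 10 genes described here belong to the p53 pathway and to the inhibitors that hold cells in the first gap phase of the cell cycle: Trp53, Mdm2, Mdm4, Cdkn1a, Cdkn1b, Cdkn2a, Cdkn2b, Cdkn2c, Rb1 and Rbl1. They were chosen by name, and the regions belonging to them are those rows of the deposited list that overlapped a gene's span in the mm10 annotation or the 5 kb on either side of it. Of 45855 regions in the list, 35 met this rule. All 10 genes were in the annotation, among 21938 protein-coding genes on the assembled chromosomes.

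The regions come from chromatin immunoprecipitation and sequencing (ChIP-seq) of H3K9ac. This histone mark, an acetyl group on lysine 9 of H3, sits at active promoters and enhancers. HT22 cells, a mouse line of immortalised hippocampal neurons that the source name gives as TH22, were kept for 48 h in 70 µM choline chloride (supplemented) or 5 µM choline chloride (control), in the same high-glucose medium with serum. There are 2 ChIP libraries and 2 input libraries, which leaves no more than 1 ChIP library for a choline level, and the labels tie no library to a level. The list gives the regions that the authors' comparison found in only 1 of 2 conditions. Region names carry the numbers 5 and 70 in that order, so the regions of condition 2 are taken as 70 µM regions and those of condition 1 as 5 µM regions, and each direction below depends on this. Regions common to both levels are not listed, so a gene without a region may carry the mark at both levels or at neither. There is no replicate of a choline level and the depth is unknown, so the values below are descriptions, without an error or a p-value.

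p53, encoded by Trp53, is a transcription factor that stressed or DNA-damaged cells stabilise. Mdm2 marks it for degradation and Mdm4 blocks its activity, and the p53 target gene Cdkn1a then halts the cell cycle. Cdkn1a and Cdkn1b encode inhibitors of the CIP/KIP family (p21 and p27), and Cdkn2a, Cdkn2b and Cdkn2c encode inhibitors of the INK4 family (p16, p15 and p18), which act on the kinases that pair with D-type cyclins. Those kinases phosphorylate the pocket proteins RB and p107, the products of Rb1 and Rbl1, which otherwise bind E2F factors and repress their target genes. From another start, Cdkn2a also encodes ARF, an antagonist of Mdm2. The HT4 cells from which the HT22 line was derived had been immortalised with a temperature-sensitive large T antigen of SV40, a viral protein that binds p53 and the pocket proteins.

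Regions were listed at 7 of the 10 genes: Trp53 with 6, Mdm2 with 5, Cdkn1a with 4, Cdkn1b with 6, Cdkn2c with 7, Rb1 with 2 and Rbl1 with 5. Mdm4, Cdkn2a and Cdkn2b had none. The share of 7 in 10 stood near that of all protein-coding genes, of which 60.8% had a region in the same window. All 35 regions were 70 µM regions and none was a 5 µM region, in a list of which 99.2% were 70 µM regions, so the direction is that of the list as a whole. Among all protein-coding genes, 60.7% had a 70 µM region in the window and 1.75% a 5 µM region. The nearest 5 µM region lay 117 kb from Cdkn2b, 133 kb from Cdkn2a, 214 kb from Trp53 and at least 1265907 bp from each of the other 7 genes.

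**Figure D1:**
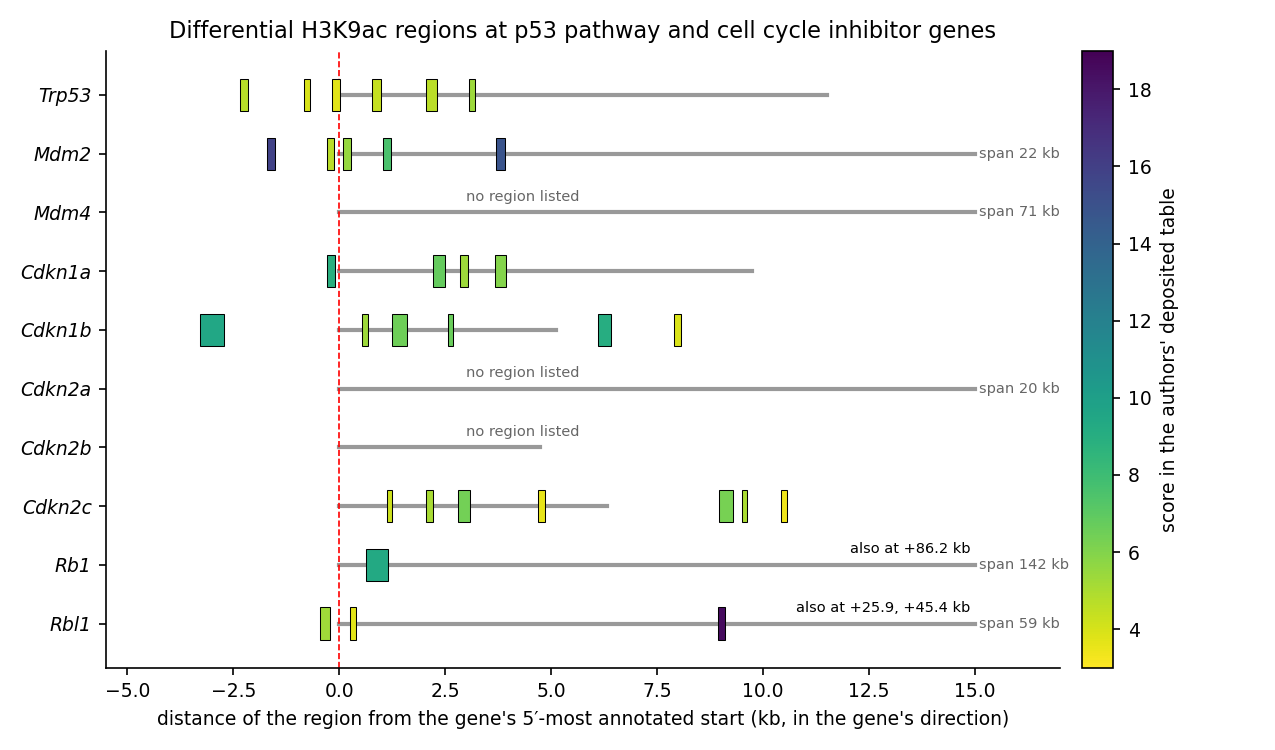
Position of each listed region relative to the 5′-most annotated start of its gene, in kb along the gene's direction, with the gene span as a grey line. Boxes are regions drawn to width and coloured by the score in the authors' deposited table. Regions appear in the rows of 7 genes, some of them far from the 5′-most start, while the rows of Mdm4, Cdkn2a and Cdkn2b are empty.

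The genes that had regions had several. At 6 of 10 genes there were 4 or more, against 20.2% of all protein-coding genes, and at 5 of 10 there were 5 or more, against 13.6%. Windows differ in length, and per 100 kb of window the number of regions was 42.9 at Cdkn2c, 39.7 at Cdkn1b, 27.9 at Trp53, 20.3 at Cdkn1a, 15.7 at Mdm2, 7.28 at Rbl1 and 1.31 at Rb1. A density as high as that of Cdkn2c was reached by 0.707% of protein-coding genes, and one as high as that of Cdkn1b by 0.989%. Both counts include regions beyond the gene's end that lay nearer to the start of a noncoding gene, as given below. Rb1, the longest of the 10 genes with a span of 142150 bp, lay at a density that 55.8% of genes reached. Over all 10 genes the median density was 11.5 regions per 100 kb, against 2.40 over all protein-coding genes, and the median span was 15849 bp, against 17425 bp. Region density also differed between chromosomes, and its part in these values was not tested: chromosome 11, which holds Trp53, had 37.5 regions per Mb, and chromosome 14, which holds Rb1, had 6.69.

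Most of these genes had a listed region near a start. Regions no more than 1 kb away from one of the gene's own annotated starts, called start-site regions here, were present at 7 of 10 genes, against 39.5% of all protein-coding genes, and 6 of 10 had 2 or more start-site regions, against 18.1%. Cdkn1b had 1. Of the 35 regions, 18 were start-site regions. Downstream starts count here: the start-site regions of Cdkn2c all belonged to Cdkn2c-201, and the one far inside Rb1 belonged to Rb1-206. At Cdkn1a, all but the upstream region belonged to downstream starts. By distance from the 5′-most start alone, Cdkn1a, Cdkn2c and Rb1 had fewer than 2 start-site regions, and the matching share of all genes was not computed. When only regions at or above the median score of the list were kept, 3 of 10 genes had a start-site region (Mdm2, Cdkn1a and Rb1), against 14.6% of all genes. A region inside the gene and over 1 kb from each of its starts was found at 5 of 10 genes (Trp53, Mdm2, Cdkn1b, Cdkn2c and Rbl1), near the 36.6% of all genes.

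**Figure D2:**
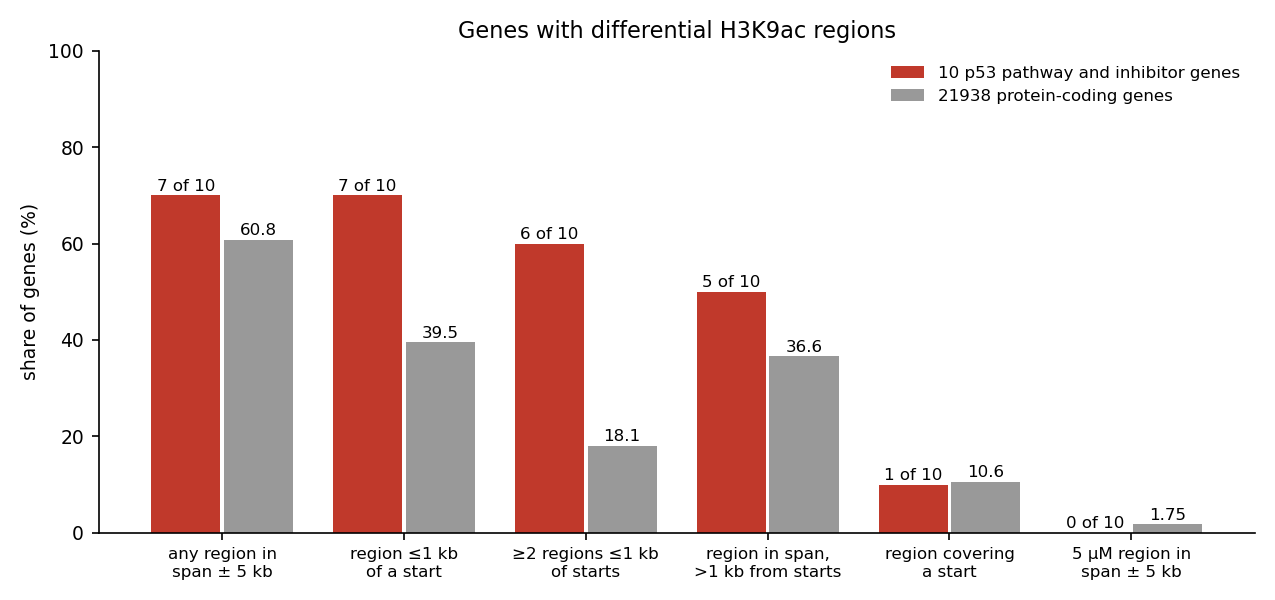
Share of genes (%) with differential H3K9ac regions under 6 criteria, for the 10 p53 pathway and inhibitor genes (red) and all 21938 protein-coding genes (grey). The red bars stand at 7 of 10 and 6 of 10 for start-site regions of any annotated start, where the grey bars stand at 39.5% and 18.1%.

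The starts themselves were mostly not covered, at these genes as over the whole list. Of these genes, only at Trp53 did a region cover an annotated start of the gene. That is 1 of 10 genes, near the 10.6% of all protein-coding genes. Over the whole list, 18.3% of the 13316 regions within 1 kb of a protein-coding start covered one. At Mdm2 and Rbl1 a pair of regions stood on either side of the 5′-most starts. The Mdm2 regions lay 24 bp inside and 128 bp outside the nearest start, and the Rbl1 regions lay 238 bp inside and 210 bp outside. Downstream starts were flanked in the same way at Cdkn1a, by regions 301 bp before Cdkn1a-201 and 47 bp beyond Cdkn1a-205, and at Cdkn2c, by regions 571 bp before and 231 bp beyond Cdkn2c-201. Around all protein-coding genes the midpoints of regions were most frequent 250 to 500 bp downstream of the 5′-most start, with 79.8 per 1000 genes in that bin of 250 bp, against 44.6 per 1000 genes in the 250 bp upstream of the start.

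**Figure D3:**
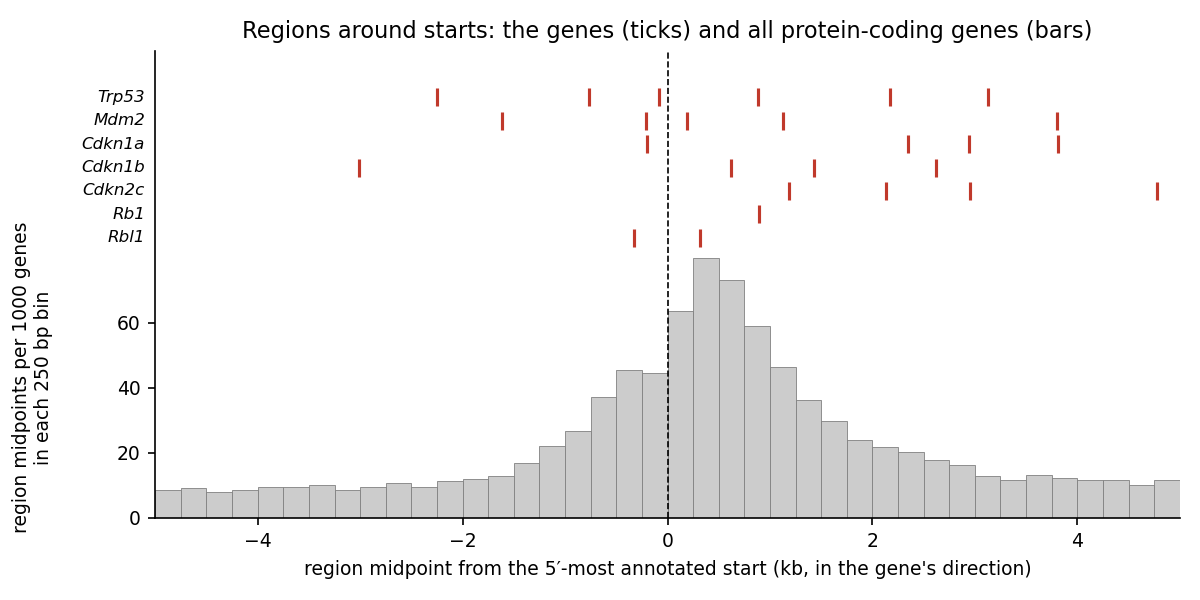
Midpoints of the regions of each gene (red ticks) above the number of region midpoints per 1000 protein-coding genes in bins of 250 bp (grey bars), by distance in kb from the 5′-most annotated start in the gene's direction. The bars are highest at 250 to 500 bp downstream, and the ticks of the 7 genes spread on both sides of the start.

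The strongest start-site region of each of the 7 genes is shown to let their base composition be compared. Sequences are from RefSeq GRCm38.p6, the build of mm10, run 5′ to 3′ on the strand of the gene, and capitals mark CpG sites. Bases that any transcript has as untranslated exon are left out, so that Mdm2 appears with the 113 intronic bases of its region. Stretches are shown at no more than 300 bases, so that Rb1 appears with the central 300 bases of its region of 509 bp.
Trp53, chr11:69581133-69581348, plus strand: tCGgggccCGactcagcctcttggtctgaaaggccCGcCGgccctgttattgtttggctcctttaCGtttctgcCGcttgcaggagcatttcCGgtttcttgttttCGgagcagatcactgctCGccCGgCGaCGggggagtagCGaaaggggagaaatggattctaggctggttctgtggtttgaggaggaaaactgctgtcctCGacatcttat
Mdm2, chr10:117709541-117709653, minus strand: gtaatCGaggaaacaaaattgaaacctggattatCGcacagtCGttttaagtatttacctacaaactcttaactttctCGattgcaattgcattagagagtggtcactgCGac
Cdkn1a, chr17:29090684-29090864, plus strand: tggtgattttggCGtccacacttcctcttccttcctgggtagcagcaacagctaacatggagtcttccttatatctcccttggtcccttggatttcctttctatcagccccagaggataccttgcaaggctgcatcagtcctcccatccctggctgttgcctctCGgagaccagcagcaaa
Cdkn1b, chr6:134920946-134921090, plus strand: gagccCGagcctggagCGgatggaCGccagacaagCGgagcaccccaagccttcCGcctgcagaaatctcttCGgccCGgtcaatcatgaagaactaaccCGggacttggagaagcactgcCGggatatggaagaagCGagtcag
Cdkn2c, chr4:109664097-109664375, minus strand: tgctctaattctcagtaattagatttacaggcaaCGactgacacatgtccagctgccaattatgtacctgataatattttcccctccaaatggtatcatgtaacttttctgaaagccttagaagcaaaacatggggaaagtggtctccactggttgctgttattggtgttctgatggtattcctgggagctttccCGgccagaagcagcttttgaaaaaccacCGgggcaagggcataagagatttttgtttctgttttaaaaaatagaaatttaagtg
Rb1, chr14:73324783-73325082, minus strand: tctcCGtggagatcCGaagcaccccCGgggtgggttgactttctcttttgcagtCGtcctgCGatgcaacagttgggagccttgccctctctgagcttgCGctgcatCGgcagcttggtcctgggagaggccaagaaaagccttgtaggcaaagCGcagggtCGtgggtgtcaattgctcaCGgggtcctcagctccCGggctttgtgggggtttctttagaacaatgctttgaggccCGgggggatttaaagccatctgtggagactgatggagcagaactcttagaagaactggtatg
Rbl1, chr2:157204744-157204977, minus strand: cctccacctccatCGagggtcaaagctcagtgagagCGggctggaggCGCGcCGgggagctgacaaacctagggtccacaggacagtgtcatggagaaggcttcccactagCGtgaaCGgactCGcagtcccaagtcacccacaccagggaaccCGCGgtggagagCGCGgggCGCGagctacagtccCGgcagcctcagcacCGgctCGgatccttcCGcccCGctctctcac
These regions lay upstream of the gene at Cdkn1a and Rbl1, in introns at Trp53, Cdkn2c and Rb1, across an intron and exon 3 at Mdm2 and in coding sequence of exon 1 at Cdkn1b. The stretch at Rbl1 held 19 CpG sites and 66.2% G and C, that at Trp53 14 CpG sites and that at Cdkn1b 10. The Cdkn1a stretch held 2 CpG sites and the Cdkn2c stretch 3, although both are start-site regions. Over all 18 start-site regions the median was 3.86 CpG sites per 100 bp, and over the other 17 regions 1.68, against 2.98 for all regions of the list within 1 kb of a protein-coding start and 1.34 for the whole list. Repeat sequence, in lower case in the RefSeq genome, made up at least 50% of 1 of the 35 regions (2.86%), an intronic region of Rbl1, against 14.0% of the whole list.

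Trp53 (ENSMUSG00000059552.13; chromosome 11, 69580359 to 69591873, plus strand) shares its promoter region with Wrap53, which runs the other way and encodes a protein of telomerase and Cajal bodies. From upstream to downstream, its regions had scores of 4.69, 3.96, 3.72, 4.41, 4.68 and 5.34 in the authors' deposited table, all below the list's median of 6.64. The score is the authors' own value for a region, in a column without a name, and ranks regions within the list. MACS2, the program used, writes a log10 likelihood ratio of both conditions in that place. The first and second Trp53 regions lay in introns of Wrap53, the third covered the starts of both genes, and the last 3 lay within the first intron of Trp53, 728, 1991 and 3007 bp from the nearest start. The weakest of the 6 was the region that covered the starts, with a score in the authors' deposited table that 5.96% of the list fell below. A region here cannot be given to Trp53 or Wrap53 alone. The part of that start-covering region between the starts of both genes is shown because it holds a p53 half-site, in capitals, the 10-base motif that p53 binds in pairs.
Trp53, chr11:69580256-69580358, plus strand: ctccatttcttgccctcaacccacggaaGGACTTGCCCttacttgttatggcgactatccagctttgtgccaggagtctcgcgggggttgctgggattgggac
Just outside the window, between 5 and 10 kb from the gene, lay regions of higher score, 15.01 and 20.48 in the authors' deposited table.

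Mdm2 (ENSMUSG00000020184.15; chromosome 10, 117688875 to 117710758, minus strand) encodes the ubiquitin ligase of p53 and is itself a p53 target. Its regions of highest score lay on the outer sides, and those near the starts had lower scores. The region 1525 bp upstream, at 117712283 to 117712472, scored 15.85 in the authors' deposited table, and the intronic region 2966 bp from the nearest start, at 117706847 to 117707056, scored 14.86. Between them, the scores in the authors' deposited table were 4.65 upstream of the start, 5.54 over exon 1 and 7.58 at exon 3. The region over exon 1 was the most CpG-rich of the 35, with 25 CpG sites or 14.0 per 100 bp. The upstream region of highest score is shown for contrast with the start-site stretches above. It holds 2 CpG sites, again in capitals.
Mdm2, chr10:117712283-117712472, minus strand: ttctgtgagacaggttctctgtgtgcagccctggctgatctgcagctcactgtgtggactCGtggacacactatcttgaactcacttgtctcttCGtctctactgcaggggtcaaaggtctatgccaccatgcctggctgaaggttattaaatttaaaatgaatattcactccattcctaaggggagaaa

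Mdm4 (ENSMUSG00000054387.13; chromosome 1, 132959484 to 133030561, minus strand), whose product inhibits p53 without degrading it, had no region near any of its 13 annotated starts or along its span of 71078 bp. The nearest listed regions stood 27108 bp beyond the 3′ end and 43994 bp beyond the 5′ end. The stretch without a region was 142 kb long, longer than 91.4% of the 45834 gaps between neighbouring regions of the list, of which the median was 12 kb. A gap that holds a whole gene must be at least as long as that gene, so this percentile is set in part by the choice of gene.

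Cdkn1a (ENSMUSG00000023067.14; chromosome 17, 29090976 to 29100727, plus strand) had 4 regions, and each of them was a start-site region of one of its 5 annotated starts. The strongest lay 112 bp upstream of the first start, at 29090684 to 29090864, and scored 8.90 in the authors' deposited table. Around the downstream starts, the scores in the authors' deposited table were 6.79, 5.37 and 5.99, for a region 301 bp before the start of Cdkn1a-201, a region inside the untranslated first exon of that transcript and a region 879 bp beyond the nearest start in the intron. The third of these was CpG-rich, with 29 sites in 256 bp. Of these regions, the first and second of the downstream group also overlapped AC167363.2, an unverified transcript on the other strand. The bases between the upstream region and the first start are shown because they hold a pair of exact matches to the p53 half-site, in capitals, 12 bases apart. The bases directly after the second match differ from the motif at their first position and are not in capitals. The spacing is therefore that of the exact matches alone. No region was listed over these bases.
Cdkn1a, chr17:29090865-29090975, plus strand: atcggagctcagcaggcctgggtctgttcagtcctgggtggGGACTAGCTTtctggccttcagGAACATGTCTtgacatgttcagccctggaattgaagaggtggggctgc
By exact match, a pair of half-sites at most 13 bases apart was found in 1 of the 13 RefSeq promoters of these genes, this one, and in 0.0447% of 20150 promoters of protein-coding genes.

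Cdkn1b (ENSMUSG00000003031.14; chromosome 6, 134920401 to 134925513, plus strand) encodes p27, which restrains the kinase complexes of cyclin E. It had regions from upstream of the gene to beyond its end. The strongest lay 2731 bp upstream, at 134917106 to 134917670. It scored 9.48 in the authors' deposited table and, at 565 bp, was the widest of the 35. Within the gene, the scores in the authors' deposited table were 5.35 in the coding part of exon 1, 6.54 across the end of the intron and the beginning of exon 2 and 6.64 in a 3′ untranslated stretch of exon 2 of Cdkn1b-202. Beyond the gene, regions with scores of 9.05 and 3.87 in the authors' deposited table were nearer to the start of the noncoding RNA gene Lockd, 2288 and 623 bp away, than to a start of Cdkn1b. Without the 5 kb on either side, 3 of these 6 regions remained.

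The INK4 genes differed among themselves. Cdkn2c (ENSMUSG00000028551.14; chromosome 4, 109660876 to 109667189, minus strand), the gene of p18, had the most regions of the 10 genes, and 7 or more were found at 6.24% of all protein-coding genes. Inside the gene, the scores in the authors' deposited table were 4.20, 5.10, 6.37 and 3.62 along its direction, the first 3 of them start-site regions of the downstream transcript Cdkn2c-201. The region with 6.37 stood 997 bp from that start, at the edge of the limit of 1 kb, and none lay within 1 kb of the 5′-most start. Beyond the 3′ end, 3 regions with scores of 6.29, 5.00 and 3.42 in the authors' deposited table lay closest to the start of the noncoding gene 9630013D21Rik, at 52, 0 and 844 bp, so that the second of them covered that start. The lowest of these was the weakest of all 35.

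Cdkn2a (ENSMUSG00000044303.6; chromosome 4, 89274471 to 89294653, minus strand), with the starts of p16 and ARF, and Cdkn2b (ENSMUSG00000073802.5; chromosome 4, 89306299 to 89311039, minus strand), the gene of p15, lie next to each other and had no region at any start or in their windows. A stretch of 168 kb around both, from 89225239 to 89393016, held no listed region, longer than 92.9% of all gaps. No other protein-coding gene lay wholly inside it. The regions at its ends had scores of 4.92 and 3.45 in the authors' deposited table. Chromosome 4 as a whole held 23.4 regions per Mb, and Cdkn2c on the same chromosome had 42.9 per 100 kb. CpG sites were counted in the 300 bases of the RefSeq promoters, and their part in the absence of regions was not tested. Among genes without a region, the ARF start of Cdkn2a had 45 CpG sites, the p16 start 12, Cdkn2b 18 and the 2 starts of Mdm4 9 and 4. Among genes that did have regions, the promoters held 35 CpG sites at Mdm2, 30 at Cdkn1b, 29 at Rbl1, 10 at Trp53, 2 and 23 at the 2 starts of Cdkn1a, and 33 and 8 at the 2 starts of Cdkn2c. Rb1 had no promoter in that set. The median of all promoters was 14.

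Rb1 (ENSMUSG00000022105.6; chromosome 14, 73183673 to 73325822, minus strand), the retinoblastoma gene, had a wide region in its first intron and a short one far inside. The wide region, of 509 bp at 73324679 to 73325187, lay 454 bp from the nearest start and scored 9.37 in the authors' deposited table. The short one, of 132 bp at 73239526 to 73239657, scored 4.66 in the authors' deposited table. It overlapped the first exon of the short transcript Rb1-206 and, on the other strand, an exon of Lpar6, a receptor gene for lysophosphatidic acid that lies within an Rb1 intron, so it cannot be given to either gene alone. No region stood upstream of Rb1 for 1406266 bp.

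Rbl1 (ENSMUSG00000027641.13; chromosome 2, 157145893 to 157204534, minus strand), the gene of p107, held the strongest region of the 35. That region, at 157195433 to 157195586, ran over exons 5 and 6 and the intron between them, and its score in the authors' deposited table was 18.52, above 81.7% of the list. At the start, the scores in the authors' deposited table were 5.27 upstream and 3.75 in the first intron. Deeper in the gene, regions 13681 and 33140 bp from the nearest start had scores of 7.67 and 5.14 in the authors' deposited table. The region 13681 bp from the start is the repeat-rich one, with 94.8% of its bases in repeats. The strongest region is A- and T-rich, with 31.2% G and C and 1 CpG site, in capitals.
Rbl1, chr2:157195433-157195586, minus strand: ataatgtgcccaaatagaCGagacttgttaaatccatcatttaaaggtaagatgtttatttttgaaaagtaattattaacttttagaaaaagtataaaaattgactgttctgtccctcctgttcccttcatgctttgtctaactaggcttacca

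By score, the regions of these genes lay low in the list. Over the 35 regions the median score was 5.35 in the authors' deposited table, against 6.64 for the list, and 11 of the 35 were above the list's median. Their range was 3.42 to 18.52 in the authors' deposited table, and none carried either of the commonest exact scores, 19.01 and 4.01. Start-site regions of the 7 genes had a median of 5.31 in the authors' deposited table, near the median of 5.00 for all regions within 1 kb of a protein-coding start. The other 17 regions had a median of 6.29 in the authors' deposited table, against 8.73 for all regions over 1 kb from every such start. The strongest region of each of the 7 genes had a median score of 9.37 in the authors' deposited table, against 13.1 over the 13344 genes with a region. Restricted to start-site regions, this was 6.37 in the authors' deposited table for the 7 genes and 5.68 for the 8665 genes with one. Widths ran from 121 to 565 bp with a median of 179 bp, against 170 bp for the list.

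**Figure D4:**
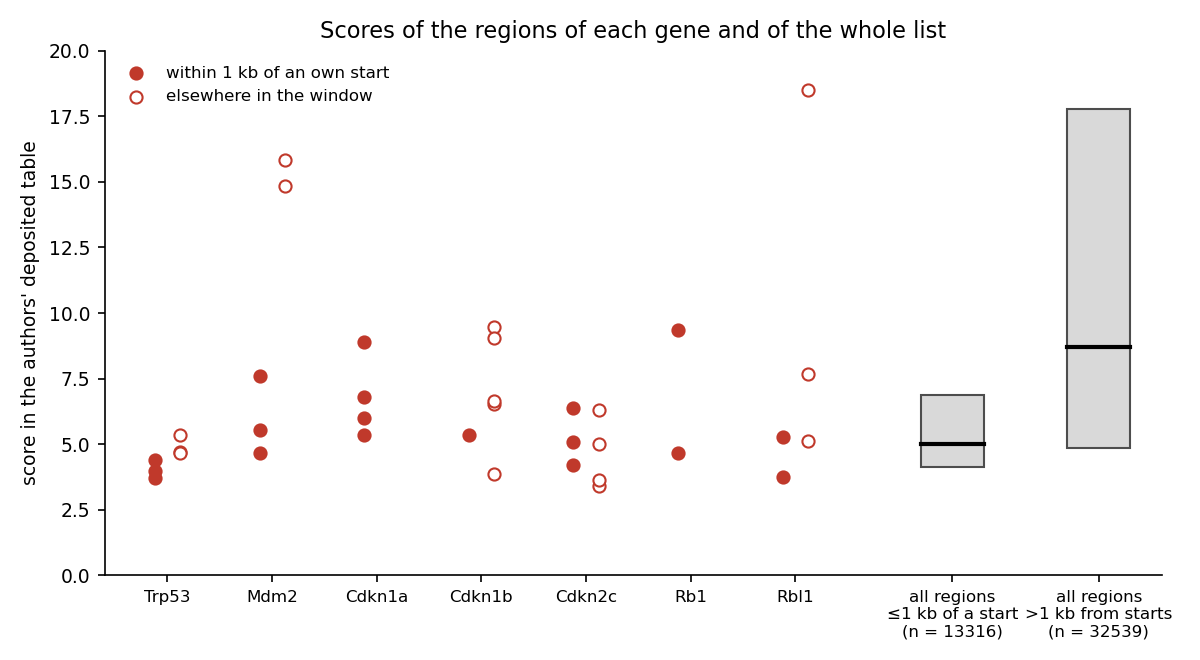
Score in the authors' deposited table of each region at the 7 genes, filled for start-site regions and open for others, beside the median (line) and quartiles (box) of all regions within 1 kb and over 1 kb from a protein-coding start. Filled points lie between 3.72 and 9.37, and the 3 points above 14 are open ones at Mdm2 and Rbl1.

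Short motifs were searched on both strands in the 35 regions: the TATA box as TATAAA, the CAAT box as CCAAT, the GC box as GGGCGG, the CRE letters TGACGTCA, the AP-1 letters TGANTCA and the E2F letters TTTCCCGC, TTTGGCGC, TTTCGCGC and TTTGCCGC. The E2F letters can overlap GGGCGG. Over their whole lengths, GGGCGG and TATAAA were each found in 6 of the 35 regions, CCAAT in 5, TGANTCA in 1 and the E2F and CRE letters in none. So that lengths did not differ, the central 120 bases of each region were compared: GGGCGG was in 5 of 35 (14.3%), against 6.03% of all regions in the list and 14.0% of those within 1 kb of a protein-coding start. CCAAT was in 3 (8.57%), against 13.8% of all regions, TATAAA in 2 (5.71%), against 5.46%, and TGANTCA in 1 (2.86%), against 3.34%. E2F letters were in 0.432% of all regions and the CRE letters in 0.1%, shares at which a count of 0 in 35 regions says little. A p53 half-site was in 2 of 35 (5.71%), at Trp53 and Mdm2, against 4.03% of all regions. In the 13 RefSeq promoters, which cover 9 of the 10 genes, E2F letters were in 2, at Rbl1 and at the ARF start of Cdkn2a, against 2.87% of all promoters. A match of letters is not a bound site, and its absence concerns these windows only.

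The wider pathway was described with 6 lists holding 87 genes. Of these, 78 had a region in the window (89.7%), against 60.8% of all protein-coding genes, and 62 a start-site region (71.3%), against 39.5%. Those with a 5 µM region were Rps27l and Pidd1, named because they were the 2 that the count found. When regions below the list's median score were left out, 48 of the 87 genes kept a region, against 43.9% of all genes. A start-site region remained at 20 of the 87, against 14.6% of all genes.

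Among 20 kinases and regulators of p53, 19 had a region (95%), against 60.8% of all protein-coding genes, and 14 a start-site region (70%), against 39.5%. By the authors' deposited table the highest start-site scores were 19.01 at Trp53bp1, an adaptor at DNA breaks, 17.02 at Kat5, an acetyltransferase that acts on p53, and 15.70 at Hipk2, a kinase of p53. To the digits shown, 19.01 is also the commonest score of the list, which 2552 regions carry. Chek1, the kinase that ATR activates, was the gene without a region. Wrap53 is in this list and shares regions with Trp53. Of 20 p53 targets for arrest, repair and feedback, 19 had a region and 16 a start-site region, led in the authors' deposited table by Gadd45b (9.51), a stress sensor, Zmat3 (8.60), an RNA-binding protein, and Tigar (8.19), which lowers glycolytic flux. Trp53inp1 had none.

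Of 14 p53 targets for apoptosis, 8 had a region (57.1%), near the 60.8% of all protein-coding genes, and 7 a start-site region (50%), against 39.5% of all genes. In the authors' deposited table they were led by the nuclease gene Aen (16.57), by Pidd1 (11.68), whose strongest start-site region was a 5 µM region, and by Bbc3 (7.49), which encodes PUMA. Eda2r, Ei24, Perp, Pmaip1, Tnfrsf10b and Trp53i11 had no region. Among 7 further inhibitor, pocket protein and related genes, 6 had a start-site region (85.7%), with Cdkn2aip (8.31), Cdkn2aipnl (6.45) and Cdkn2d (6.16) first in the authors' deposited table. Cdkn1c, the gene of p57, had no region. Cdkn2aip and Cdkn2aipnl are not themselves kinase inhibitors.

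All 14 E2F factors and partners had a region, against 60.8% of all protein-coding genes, and 8 had a start-site region (57.1%), against 39.5%. First among these in the authors' deposited table were Lin54 (10.30) and Lin52 (5.40) of the DREAM complex and E2f1 (8.0). The 12 G1 cyclins, kinases and their activators, which the inhibitors oppose, all had a region, and 11 had a start-site region (91.7%). Skp2, which targets p27 for degradation, had a start-site score of 17.38 in the authors' deposited table, Cdk6 9.86 and Ccnd1 9.79, and Cks1b was the gene without a start-site region.

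**Figure D5:**
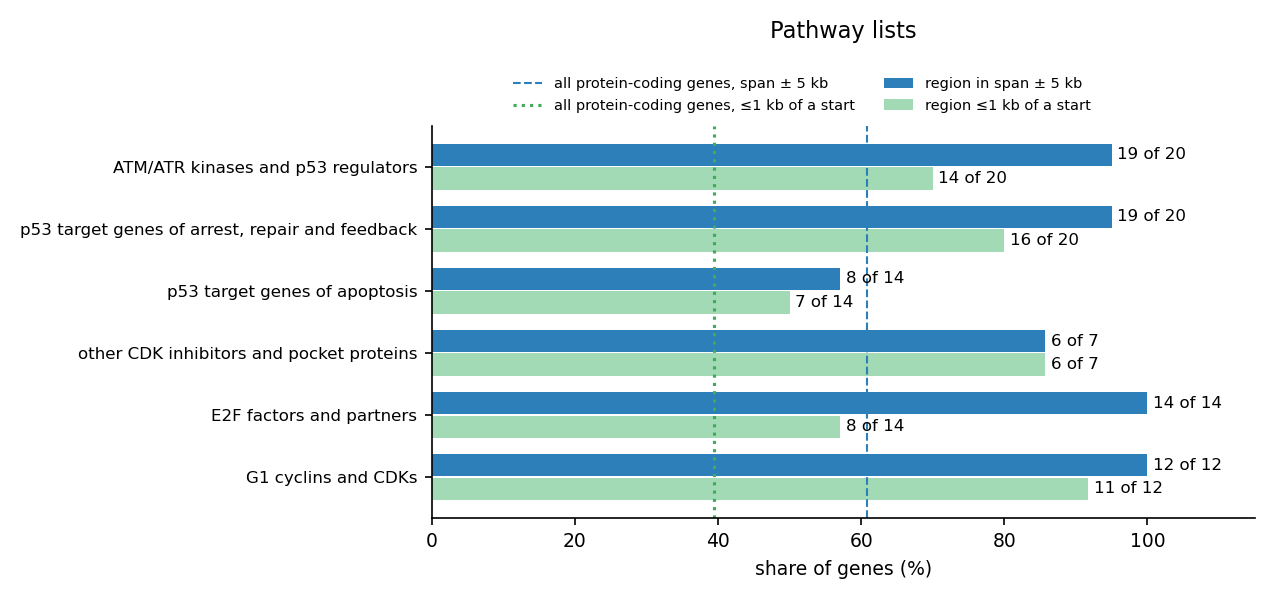
Share of genes (%) in 6 pathway lists with a region in the span and 5 kb on either side (blue) and with a start-site region (green), beside the shares of all protein-coding genes (dashed blue line, 60.8%, and dotted green line, 39.5%). The blue bar of the apoptosis targets, at 8 of 14, is the one below its line.

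Markers of cell types were looked at in the same way. A region was present at 7 of 7 neuronal markers, 1 of 3 astrocyte markers (Slc1a3, not Gfap or Aqp4), 2 of 3 microglial markers (Aif1 and Cx3cr1, not Csf1r) and 3 of 3 fibroblast markers (Col1a1, Col1a2 and Pdgfra). A start-site region was present at 3 neuronal markers (Rbfox3, Syn1 and Dlg4), at Slc1a3, at Aif1 and at the 3 fibroblast markers. Of all protein-coding genes, 60.8% had a region and 39.5% a start-site region. A list of differences does not show which genes the cells express, so the cell type of the line could not be checked against it.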

How the data were processed

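H3K9ac ChIP-seq of HT22 cells at both choline levels gave 2 ChIP and 2 input libraries, grouped here by the kind of library in their titles. The submitters' processing notes name the build mm10 and the tools Bowtie 1.0.0, CASAVA 1.8 and MACS2, the last without a version. Per the series' design text, the authors called peaks against input and then differential regions with the bdgdiff function of MACS2. Per the file headers, the list holds the regions unique to each condition. Its only measure is a score per region, deposited by the authors without a column name; bdgdiff writes a log10 likelihood ratio there. The scaling between libraries is not stated in the labels or headers, and depth alone can shift how many regions a level receives.

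Regions were set against GENCODE M21 by an overlap of at least 1 bp, with Python 3.11.15 and numpy 2.4.6, and sequences were read from RefSeq GRCm38.p6, indexed with samtools 1.23.1. Coordinates count from 1. All region ends lay inside the chromosomes of that build. The overlap counts were tested on simulated regions. Gene lists and alternatives were written out with earlier results of these data known, as were the members. Named genes are all 10 members, the 3 genes per list with the highest start-site scores, up to 2 genes per list without a region in alphabetical order, and genes whose start is nearest to a member's region; the remaining apoptosis targets without a region, the genes with 5 µM regions, Cks1b, Wrap53 and the cell type markers were named beside their counts. One list of cell type markers is not reported here. No value was tested, since no library could be tied to a choline level and there were no replicates.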

Additional observations from a re-analysis of the deposited data

How the results depend on the processing

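No paired analysis was possible because no value in the list belongs to a single library and no choline level has replicates, so no replicate could be left out either. Of 38 counts under other settings, 32 stayed within 1.5 times the reported count. The 7 genes with a region were the same with the gene span alone, with 10 kb on either side, by midpoint, without the 2 commonest scores and with 70 µM regions only. Over these settings the share of all protein-coding genes with a region ran from 52.1% (span alone) to 65.4% (10 kb). Leaving out the 2 commonest scores or the 5 µM regions could not change the values of the 10 genes, since their windows held neither. The count of genes with a region away from starts already used the span alone, so that setting repeated it. Such fixed outcomes are included in the 32. The 35 regions became 23 with the span alone. With only regions at or above the median score, 11 regions were left. A region remained at 5 of 10 genes, since Trp53 and Cdkn2c lost theirs, near the 43.9% of all protein-coding genes. A start-site region remained at 3 of 10, against 14.6% of all genes. One in the gene away from starts remained at 3 of 10, near the 28.2% of all genes. Of the 87 pathway genes, 48 had a region and 20 a start-site region, where the shares of all genes were 43.9% and 14.6%. This setting keeps fewer regions by construction. The median over genes of the strongest score in the authors' deposited table was 6.79 with the span alone, 10.1 with 10 kb and 9.48 at or above the median score, against 9.37. With 10 kb the strongest score of Trp53 in the authors' deposited table was 20.48, against 5.34. With the 5′-most start alone, 6 of 10 genes had a start-site region, since Cdkn2c dropped out, against 32.5% of all protein-coding genes. Depth is unknown, so the smallest difference that could have been listed is unknown too.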
